A study of Homo sapiens with 6 samples.

Results

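Homologous recombination and the Fanconi anaemia pathway were followed across 49 genes in LN229, an established human glioblastoma cell line. The 49 were taken by gene symbol from tables of 28265 genes, with the BRCA2 rise already known, and all 49 were present and passed the low-count filter that left 14315 genes for testing. Total RNA had been sequenced in 6 libraries in 2 groups of 3. One group carries the genotype label TRIM25 knockdown, made with the short hairpin shTRIM25 according to the series design, and the other carries the label WT and sample titles with the letters NC, which are not explained. LN229 cells of both groups were kept in DMEM with serum. The labels do not say how many hairpins were used, whether the WT cells carried a control hairpin, or whether libraries within a group are separate cultures. The p-values here therefore speak only of the spread among 6 libraries, which may be technical.

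The targeted gene went against its label. TRIM25, a ubiquitin ligase gene, stood at 80.3, 80 and 88.5 CPM (each gene's share of the library's counts, per 1000000, on scaled library sizes) in the libraries labelled knockdown, against 35.3, 35.8 and 35.6 CPM in the WT libraries. Its mRNA was 1.22 ± 0.07 (SE) higher on the log2 scale in the libraries labelled knockdown (adjusted p = 3.23e-09 in edgeR's quasi-likelihood test). Every direction is therefore given for the libraries labelled knockdown relative to WT, and none can be read as an effect of less TRIM25 mRNA. An exchange of the group labels would turn every direction round, and whether one took place was not tested. In bulk RNA, more or fewer cells in the cycle phase using a gene cannot be told apart from more or less RNA per cell.

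Homologous recombination repairs a DNA double-strand break by copying an intact sister chromatid. The ends are first cut back to single strands, BRCA1, PALB2 and BRCA2 then prepare them to invade the intact copy, and the joint molecules are finally dissolved or cut. The Fanconi pathway unhooks crosslinks between DNA strands: a core ubiquitin ligase complex modifies FANCD2 and FANCI, nucleases cut around the lesion, and recombination restores the fork. Many of these genes are transcribed mainly in S and G2 phase, and glioblastoma cells rely on the pathway after alkylating drugs and radiation.

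Of the 49 genes 26 passed an adjusted p of 0.05 as higher in the libraries labelled knockdown and 0 as lower, and 23 did not pass. Without BRCA2, whose rise was known, 25 of 48 passed as higher. Over all 14315 genes 23.3% passed in either direction, 12.2% higher and 11.0% lower. The median log2 fold change of the 49 was 0.22, against 0.00 over all genes tested, and 42 of the 49 had a positive value, against 49.2% of all genes. In CPM the groups did not overlap for 32 of the 49, 30 of them higher where labelled knockdown and 2 lower, against 37.3% of all genes. At an unadjusted p under 0.05 edgeR and limma-voom each gave 2 lower members, RAD54L and FANCL, and DESeq2 gave 0. Over all 14315 genes that threshold gave 2543 lower in edgeR, 2563 in limma-voom and 1997 in DESeq2. After adjustment limma-voom and DESeq2 also called 0 members lower, against 1581 and 1175 of all genes. Most rises were small, and only BRCA2 reached a 2-fold difference. The number of members called was 12 without WT replicate 3, 14 without labelled knockdown replicate 2, 16 without labelled knockdown replicate 3 and 33 without labelled knockdown replicate 1. The number of all genes called also varied widely over the fits without a library, and its range is given in the closing section.

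**Figure D1:**
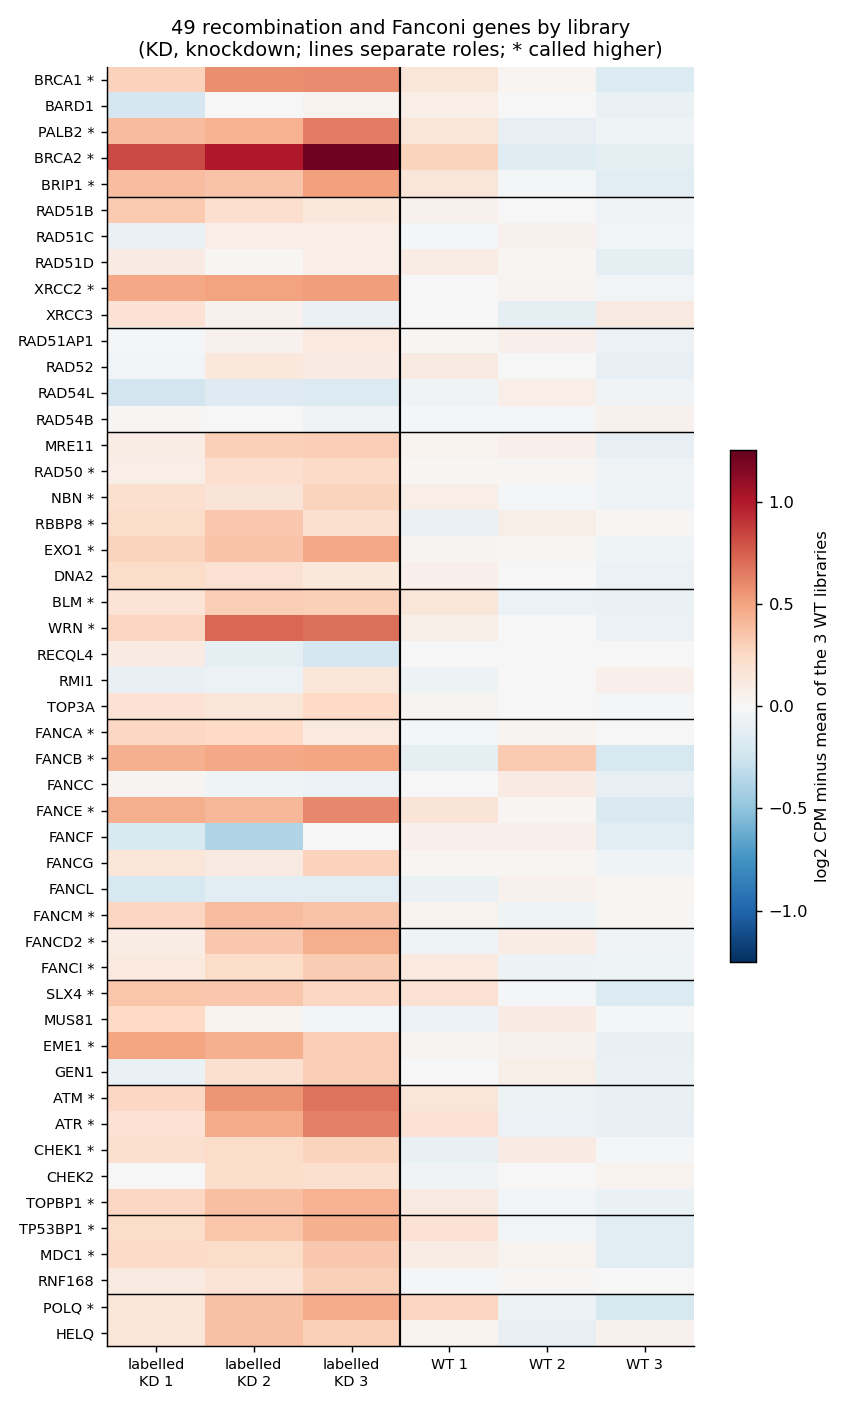
Each row is 1 of the 49 genes and each column 1 library (3 labelled knockdown, 3 WT), and the colour gives log2 CPM minus the mean of the 3 WT libraries. Red dominates the columns labelled knockdown, with BRCA2 the darkest row, and 26 genes with an asterisk passed the test.

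In the fit with all libraries and in each of the 14 other settings, the 6 fits without 1 library included, 12 genes were called higher. These were BRCA1, PALB2, BRCA2, BRIP1, XRCC2, EXO1, WRN, EME1, ATM, ATR, TOPBP1 and TP53BP1. How many of all genes tested met the same rule was not counted, so the 12 have no background share beside them. The other 14 called genes depended on single libraries. They are RAD50, NBN, RBBP8, BLM, FANCA, FANCB, FANCE, FANCM, FANCD2, FANCI, SLX4, CHEK1, MDC1 and POLQ, and each of them missed the threshold when WT replicate 3 was left out.

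**Figure D2:**
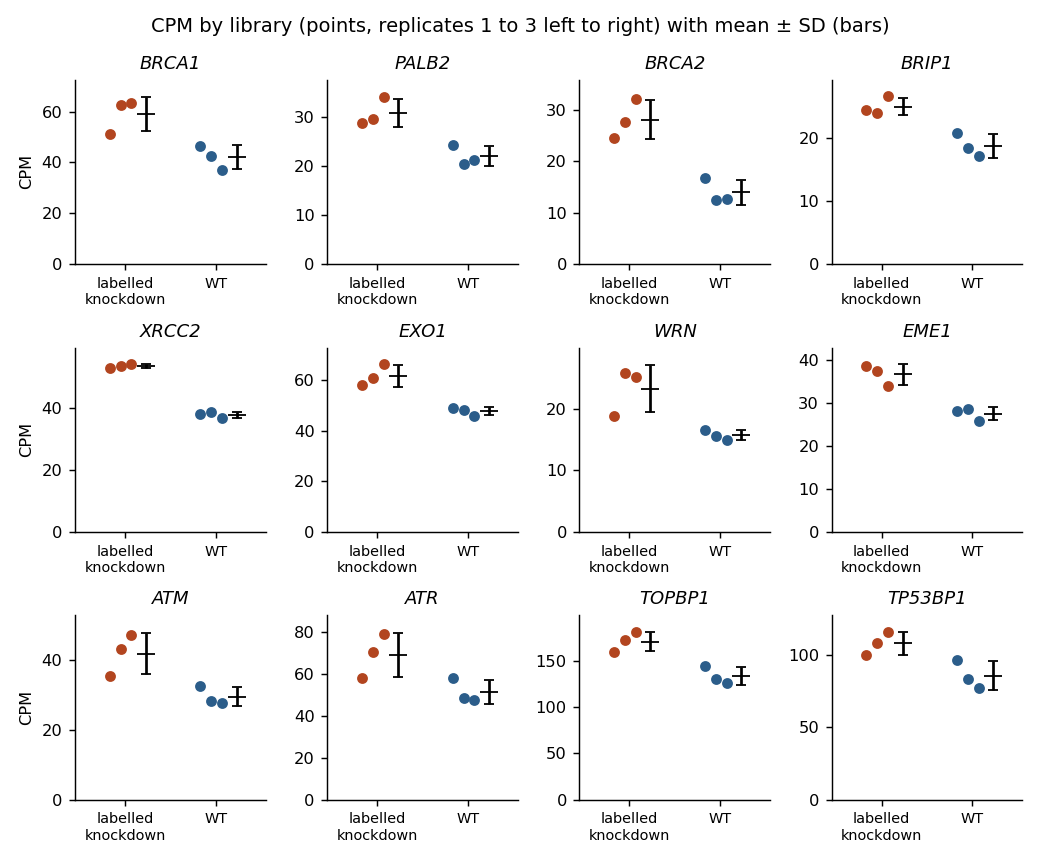
Points are CPM in each of the 3 libraries labelled knockdown (left) and the 3 WT libraries (right) for the 12 genes called in every setting, and bars are mean ± SD; each axis starts at 0. The groups do not overlap for 11 of the 12, and in ATR labelled knockdown replicate 1 (58.0 CPM) lies just under WT replicate 1 (58.1 CPM).

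Among BRCA1, BRCA2 and their direct partners, 4 of 5 genes rose. BRCA2, which acts on resected single-stranded DNA to start strand invasion, stood at 24.5, 27.7 and 32.2 CPM in the libraries labelled knockdown, against 16.8, 12.5 and 12.7 CPM in the WT libraries. The lowest library labelled knockdown was well above the highest WT library. The rise was 2.01-fold, or 1.01 ± 0.12 on the log2 scale (SE, 95% interval 0.76 to 1.26; edgeR adjusted p = 1.32e-05), and 0.3% of tested genes had a larger log2 fold change. Since this rise was known when the genes were chosen, its size is a description. PALB2, which bridges BRCA1 to BRCA2, stood at 28.7, 29.5 and 34.0 CPM in the libraries labelled knockdown, against 24.3, 20.4 and 21.1 CPM in WT. BRCA1, which promotes end resection and recruits PALB2, stood at 51.2, 62.5 and 63.2 CPM against 46.4, 42.7 and 37.1 CPM in WT. Both were separated between the groups, and both rose by 0.49 ± 0.09 on the log2 scale (SE; edgeR adjusted p = 0.00111 for PALB2 and 0.00102 for BRCA1). BRIP1, a helicase that binds BRCA1, stood at 24.4, 24.0 and 26.6 CPM against 20.8, 18.4 and 17.1 CPM in WT, and rose by 0.42 ± 0.09. BARD1 was the exception. The obligate partner of BRCA1 in its ubiquitin ligase, it stood at 26.3, 30.2 and 31.3 CPM in the libraries labelled knockdown, against 32.1, 30.5 and 28.7 CPM in WT. Its groups overlapped, and its log2 difference was -0.05 (95% interval -0.23 to 0.13).

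BRCA2 and its binding partner PALB2 rose together, so the DNA before the start of each is shown. The sequences are from RefSeq (build GRCh38.p14) and run 5′ to 3′ on the gene's strand up to the most upstream transcript start of the gene in GENCODE v29. The BRCA2 stretch lies at chr13:32315258-32315473 on the plus strand and the PALB2 stretch at chr16:23641311-23641560 on the minus strand. Capitals mark the only match to any of the 4 motif families described next, a CCAAT box on the opposite strand.
BRCA2: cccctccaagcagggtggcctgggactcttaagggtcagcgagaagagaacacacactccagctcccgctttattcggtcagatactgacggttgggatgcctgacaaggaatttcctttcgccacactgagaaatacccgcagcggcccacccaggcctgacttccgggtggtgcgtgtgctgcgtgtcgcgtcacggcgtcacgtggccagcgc
PALB2: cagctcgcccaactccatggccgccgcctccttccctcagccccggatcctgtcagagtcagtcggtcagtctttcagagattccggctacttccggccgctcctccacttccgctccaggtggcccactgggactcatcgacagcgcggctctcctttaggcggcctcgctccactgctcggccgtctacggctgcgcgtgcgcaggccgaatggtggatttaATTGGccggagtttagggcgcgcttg

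The families searched on both strands were E2F-type (TTTCCCGC, TTTGGCGC, TTTGGCGG or TTTCGCGC), CHR (TTTGAA or TTCGAA), the CCAAT box (CCAAT) and the GC box (GGGCGG). The window ran from 250 bases before to 50 bases after each annotated start and was found for 43 of the 49 genes, all but NBN, RAD54B, WRN, RECQL4, DNA2 and FANCI. An E2F-type match lay in 7 of these 43 (16.3%), against 6.81% of 10989 tested genes with a window. The CHR, CCAAT and GC box families were matched in 16.3%, 46.5% and 76.7% of the 43, against 15.7%, 43.3% and 75.7% of tested genes. Among the 20 members with a window that were not called, 3 had an E2F-type match (15%): FANCC, GEN1 and RNF168. The rest of the 43 were called, and 4 of them had one. Matches were thus present in called and not-called members, and a relation between match and call was not tested. These 4 are printed here in capitals with 9 bases on each side because E2F factors switch on many S-phase genes. They lie at chr7:152676104-152676129 on the minus strand for XRCC2, chr1:241848199-241848224 on the plus strand for EXO1, chr3:10026426-10026451 on the plus strand for FANCD2 and chr3:133661932-133661957 on the minus strand for TOPBP1.
XRCC2: gcgttggtgGCGGGAAAgttgagtct
EXO1: aggtcagccTTTCGCGCgctgtgtag
FANCD2: tcgggcctgGCGGGAAAgtcgaaaac
TOPBP1: gcgcggttgGCGCGAAAgtcggttcc
A match is a run of letters, not a shown binding site, and the windows were read from another build than the hg19 named for the counts.

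The genes next to BRCA2 were also followed. FRY and B3GLCT are the nearest tested genes before it on the chromosome, and their log2 fold changes were 0.49 ± 0.14 and 0.05 ± 0.11 (SE). N4BP2L1 and N4BP2L2, the nearest after it, had 0.44 ± 0.15 and 0.04 ± 0.07. FRY (edgeR adjusted p = 0.022) and N4BP2L1 (0.0418) rose, but each kept its call in only 2 of the 6 fits without a library, with an adjusted p of up to 0.125 and 0.248, and neither passed with DESeq2 (0.0521 and 0.113). FRY encodes a large protein that acts with NDR kinases.

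The related genes RAD51B, RAD51C, RAD51D, XRCC2 and XRCC3, whose products form complexes that assist strand exchange, did not move together, and only XRCC2 rose. XRCC2 stood at 53.1, 53.6 and 54.3 CPM in the libraries labelled knockdown, against 38.0, 38.8 and 36.9 CPM in WT. Libraries within each group lay within a few CPM of each other, and the rise was 0.50 ± 0.07 on the log2 scale (SE; edgeR adjusted p = 4.8e-05). Its partners in the same complex did not pass. RAD51B, the scarcest member, stood at 5.58, 5.13 and 4.85 CPM against 4.59, 4.42 and 4.30 CPM in WT, and its interval ran from -0.09 to 0.52. RAD51D, whose exons share 905 bp with a read-through gene on the same strand, stood at 19.3, 18.2 and 19.1 CPM against 19.2, 18.3 and 16.6 CPM in WT. RAD51C and XRCC3 had log2 fold changes of 0.03 ± 0.08 and 0.04 ± 0.11 (SE).

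Of the 4 genes of strand exchange and annealing 0 passed the test. At an unadjusted p under 0.05, 0 were higher and 1 lower in edgeR and limma-voom, and 0 were either in DESeq2. Over all 14315 genes 2601, 2599 and 2227 were higher at that threshold in edgeR, limma-voom and DESeq2, and 2543, 2563 and 1997 lower. RAD54L, a translocase of strand invasion, stood at 22.3, 23.5 and 23.3 CPM in the libraries labelled knockdown, against 25.4, 27.8 and 25.5 CPM in WT. The groups did not overlap and its log2 fold change was -0.19 ± 0.08 (SE; edgeR adjusted p = 0.106), the lowest of the 49. Its paralog RAD54B had 25, 24.8 and 24 CPM against 24.3, 24.4 and 25.7 CPM in WT, and it shares 3139 bp of exon with FSBP on the same strand. RAD51AP1, which promotes joint molecule formation, and RAD52, an annealing protein, had log2 fold changes of 0.06 ± 0.08 and 0.07 ± 0.10.

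End resection had 6 of 6 genes with separated groups, all higher in the libraries labelled knockdown, of which 4 passed the test. Over all genes tested 37.3% had separated groups, in either direction, and 12.2% passed as higher. With an offset for gene length and GC content 2 of the 6 passed, against 18.0% of all genes higher. RAD50 (0.04) and NBN (0.12) did not pass in that fit. EXO1, the exonuclease of long-range resection, stood at 58, 61 and 66.6 CPM, against 49, 48.3 and 46.1 CPM in WT, and rose by 0.37 ± 0.07 on the log2 scale (SE; edgeR adjusted p = 0.00116). RBBP8, which encodes the resection starter CtIP, stood at 49.4, 53.1 and 48.3 CPM against 39.6, 44.2 and 42.5 CPM in WT. In the break-sensing MRN complex, RAD50 stood at 157.9, 172.8 and 176.6 CPM against 151.8, 151.1 and 145.1 CPM in WT, and NBN at 84.4, 82.2 and 89.1 CPM against 78.1, 72.1 and 70.7 CPM. The log2 rises of RBBP8, RAD50 and NBN were 0.26, 0.18 and 0.21. Their calls were not stable: without labelled knockdown replicate 2 the adjusted p was 0.109, 0.162 and 0.0642, and without WT replicate 3 it was 0.0558, 0.164 and 0.139. Without WT replicate 1 RBBP8 (0.0714) and RAD50 (0.0596) lost the call, and without labelled knockdown replicate 3 or WT replicate 2 RAD50 (0.121 and 0.118) and NBN (0.0902 and 0.129) did. MRE11, the nuclease of MRN, stood at 18.8, 21.7 and 21.8 CPM against 18.1, 18.4 and 16.4 CPM in WT, with a log2 fold change of 0.24 ± 0.09 that did not pass (edgeR adjusted p = 0.0663). It passed without labelled knockdown replicate 1 (0.00932). DNA2, a resection nuclease and helicase, had a log2 fold change of 0.18 ± 0.09.

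Among RecQ helicases and their partners, WRN and BLM rose. WRN, the helicase lost in Werner syndrome, stood at 18.8, 25.7 and 25.2 CPM in the libraries labelled knockdown, against 16.5, 15.6 and 14.9 CPM in WT. Labelled knockdown replicate 1 was nearest to WT, and the rise was 0.57 ± 0.11 on the log2 scale (SE, 95% interval 0.34 to 0.80; edgeR adjusted p = 0.00119), the largest after BRCA2. The intervals of WRN and BRCA2 overlapped, and the difference between the genes was not tested. BLM, which dissolves double Holliday junctions, stood at 32.7, 36.1 and 35.8 CPM against 32.4, 27.7 and 27.4 CPM in WT, and rose by 0.26 ± 0.08. That call was lost without labelled knockdown replicate 2 (adjusted p = 0.139) or 3 (0.0844) and without WT replicate 2 (0.157) or 3 (0.161), and with DESeq2 (0.0602). TOP3A, the topoisomerase that acts with BLM, stood at 46.7, 45.8 and 49 CPM against 42.2, 41.1 and 40.6 CPM in WT. Its groups were separated, but it missed the threshold (log2 fold change 0.19 ± 0.07, edgeR adjusted p = 0.0508) and passed with limma-voom (adjusted p = 0.0488). RMI1, the third partner, had 0.01 ± 0.09 and the helicase gene RECQL4 -0.08 ± 0.08.

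The Fanconi core complex was divided, with 4 of 8 genes higher and 0 lower in edgeR, and 1 higher and 0 lower in DESeq2. FANCE, which links the core to FANCD2, stood at 7.66, 7.42 and 8.47 CPM in the libraries labelled knockdown, against 6.23, 5.66 and 4.93 CPM in WT, and rose by 0.49 ± 0.13 on the log2 scale (SE). FANCB, a scaffold subunit on the X chromosome, stood at 7.66, 7.87 and 7.91 CPM against 5.16, 7.04 and 4.87 CPM, and rose by 0.47 ± 0.15. FANCM, the translocase that brings the core to DNA, stood at 10.6, 11.5 and 11.3 CPM against 9.06, 8.49 and 8.86 CPM, and rose by 0.34 ± 0.11. FANCA, another subunit, stood at 60, 59.6 and 54.5 CPM against 49.1, 51.3 and 49.7 CPM, and rose by 0.21 ± 0.07. The groups did not overlap for any of these 4, but FANCE and FANCB rest on 77 to 138 reads in each library. Their edgeR adjusted p of 0.0136 (FANCE), 0.0273 (FANCB), 0.0307 (FANCM) and 0.0334 (FANCA) stood at 0.0796, 0.134, 0.0859 and 0.113 without WT replicate 3. DESeq2 called FANCE but not FANCA (adjusted p = 0.0538), FANCB (0.0644) or FANCM (0.1). Calls were also lost without labelled knockdown replicate 2 for FANCB (0.0794), FANCM (0.108) and FANCA (0.143), and without labelled knockdown replicate 3 for FANCE (0.061), FANCB (0.0597) and FANCM (0.0818). Without WT replicate 1 FANCB (0.0876) and FANCA (0.0838) lost the call, and without WT replicate 2 FANCM (0.114) and FANCA (0.0869) did.

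The other core genes had no call. FANCL, the catalytic ubiquitin ligase subunit and the shortest of the 49 at 1777 bp, stood at 42.7, 44.5 and 44.5 CPM in the libraries labelled knockdown, against 46.3, 50.8 and 49.8 CPM in WT. Its groups were separated in the opposite direction to most members, with a log2 fold change of -0.16 ± 0.07 (SE; edgeR adjusted p = 0.116). FANCG had 0.19 ± 0.08, FANCC -0.03 ± 0.09 and FANCF -0.17 ± 0.10. At an unadjusted p under 0.05, 1 core gene was lower in edgeR and limma-voom and 0 in DESeq2. Over all 14315 genes 2543, 2563 and 1997 were lower at that threshold in edgeR, limma-voom and DESeq2.

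Both substrates of the core complex rose. FANCD2 stood at 56.5, 66.6 and 72.3 CPM in the libraries labelled knockdown, against 51.1, 56.3 and 51.4 CPM in WT, and rose by 0.30 ± 0.08 on the log2 scale (SE; edgeR adjusted p = 0.0141). FANCI stood at 143.0, 155.0 and 164.6 CPM against 143.2, 126.0 and 126.9 CPM, and rose by 0.22 ± 0.07 (adjusted p = 0.0257). FANCD2 was separated between the groups, and FANCI overlapped by labelled knockdown replicate 1 and WT replicate 1. Calls of FANCD2 and FANCI were lost without labelled knockdown replicate 2 (adjusted p = 0.0667 and 0.0961), labelled knockdown replicate 3 (0.0682 and 0.0904) or WT replicate 3 (0.0608 and 0.118), and that of FANCI also without WT replicate 2 (0.143).

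Of the junction and crosslink nucleases, EME1 and SLX4 rose. EME1, the partner of the MUS81 nuclease, stood at 38.6, 37.3 and 33.9 CPM in the libraries labelled knockdown, against 28.2, 28.5 and 25.8 CPM in WT, and rose by 0.41 ± 0.08 on the log2 scale (SE; edgeR adjusted p = 0.00146). It is a short gene, at 2354 bp, and labelled knockdown replicate 3 was its lowest library in that group. SLX4, the scaffold that gathers nucleases at crosslinks, stood at 21.0, 20.9 and 19.8 CPM against 18.9, 16.2 and 14.7 CPM, and rose by 0.30 ± 0.10. The SLX4 call (adjusted p = 0.0348) was lost without labelled knockdown replicate 2 (0.11) and without WT replicate 2 (0.12) or 3 (0.188), and with DESeq2 (0.0652). MUS81 itself had a log2 fold change of 0.09 ± 0.08. GEN1, a Holliday junction resolvase, stood at 41.5, 50.3 and 54.3 CPM against 44.1, 46.2 and 41.6 CPM, with overlapping groups and 0.15 ± 0.09.

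Most of the signalling genes rose, with 4 of 5 checkpoint genes and 2 of 3 break-marking genes called. ATM, the kinase that responds to double-strand breaks, stood at 35.2, 43.1 and 46.9 CPM in the libraries labelled knockdown, against 32.6, 28.2 and 27.6 CPM in WT, and rose by 0.51 ± 0.10 on the log2 scale (SE; edgeR adjusted p = 0.00147). ATR, the kinase of stalled forks, stood at 58.0, 70.5 and 79.0 CPM against 58.1, 48.6 and 47.6 CPM, and rose by 0.43 ± 0.10. TOPBP1, which activates ATR, stood at 159.6, 172.5 and 180.7 CPM against 144.4, 130.4 and 126.0 CPM, and rose by 0.36 ± 0.07. In all 3 genes labelled knockdown replicate 1 was the lowest of its group and WT replicate 1 the highest of its own. CHEK1, the kinase downstream of ATR, stood at 37.0, 37.9 and 39.1 CPM against 30.3, 34.5 and 32.0 CPM, and rose by 0.24 ± 0.08. Its call (adjusted p = 0.0309) was lost without labelled knockdown replicate 2 (0.0963) or 3 (0.0835) and WT replicate 1 (0.11) or 3 (0.104), and with DESeq2 (0.0576). CHEK2, the kinase downstream of ATM, had 0.14 ± 0.08. TP53BP1, whose protein 53BP1 restrains resection, stood at 100, 108.1 and 115.7 CPM against 96.4, 83.1 and 77.3 CPM, and rose by 0.34 ± 0.08. MDC1, which binds marked chromatin at breaks, stood at 93.8, 93.3 and 100.4 CPM against 84.8, 81.7 and 72.4 CPM, and rose by 0.27 ± 0.07. Its call (adjusted p = 0.0109) was lost without WT replicate 3 (0.0893) and with an offset for deposited length alone (0.11). It was kept with an offset for deposited length and GC content (0.14, edgeR adjusted p = 0.0381) and with that offset on GENCODE lengths (0.24, adjusted p = 0.000349). RNF168, the ubiquitin ligase that recruits 53BP1, had 0.20 ± 0.08 and missed the threshold (adjusted p = 0.0699) with separated groups; it passed without labelled knockdown replicate 1 (0.0136).

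POLQ, the polymerase of microhomology-mediated end joining and an alternative to recombination, stood at 34.2, 39.7 and 42.7 CPM in the libraries labelled knockdown, against 37.1, 29.5 and 26.9 CPM in WT. Its groups overlapped, and its rise of 0.32 ± 0.11 on the log2 scale (SE; edgeR adjusted p = 0.0378) was lost without labelled knockdown replicate 2 (0.116) or 3 (0.128) and without WT replicate 2 (0.151) or 3 (0.194). HELQ, a helicase of fork repair, had separated groups and 0.27 ± 0.10 but missed the threshold (adjusted p = 0.0574), which it passed without labelled knockdown replicate 1 (0.0144).

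Genes whose products act together did not all keep their proportions. Ratios of FPKM, the authors' count per unit of gene length and of total count, were taken in each library for 13 pairs, and the groups were separated in 6 and overlapped in 7. BRCA1 over BARD1 was 1.47, 1.56 and 1.52 in the libraries labelled knockdown, against 1.09, 1.06 and 0.98 in WT. For BRCA2 over PALB2 it was 0.301, 0.33 and 0.334 against 0.243, 0.217 and 0.212 in WT, so BRCA2 mRNA gained on its binding partner, which itself rose. The ratio of EME1 to MUS81 was 0.79, 0.881 and 0.847 against 0.723, 0.648 and 0.639 in WT. By contrast, BRCA1 over PALB2 averaged 1.06 ± 0.0958 in the libraries labelled knockdown and 1.06 ± 0.0926 in WT (SD, n = 3 each). MRE11 over RAD50 averaged 0.146 ± 0.00401 and 0.14 ± 0.00499, and FANCD2 over FANCI 0.347 ± 0.0193 and 0.331 ± 0.0369, with overlapping groups. The pairs were picked with the fold changes known, and no test of the ratios was run. How often ratios of other gene pairs were separated was not counted. The fold changes behind the ratios were not adjusted for gene length. Separated pairs could set a long gene over a short one, as with BRCA2 (11386 bp) over PALB2 (4008 bp) and ATM (13437 bp) over CHEK2 (2139 bp). EME1 (2354 bp) and MUS81 (2763 bp) were near in length. The part of length in the ratios was not tested.

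**Figure D3:**
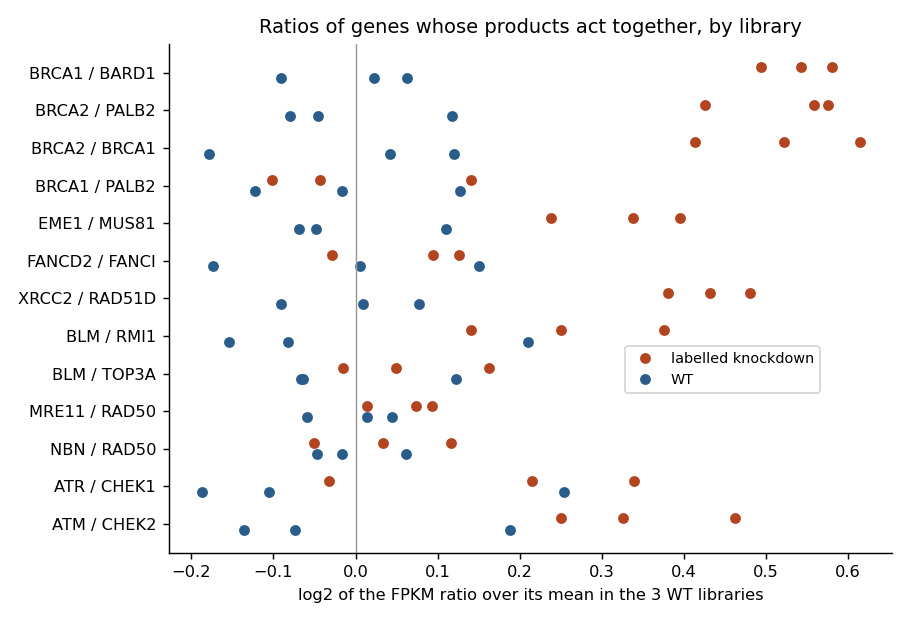
For each of 13 pairs the points give log2 of the FPKM ratio in each library over the mean ratio of the 3 WT libraries, for labelled knockdown (upper points) and WT (lower points). The groups are apart for BRCA1/BARD1, BRCA2/PALB2, BRCA2/BRCA1, EME1/MUS81, XRCC2/RAD51D and ATM/CHEK2 and overlap for the other 7.

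Fold change moved with the gene length implied by the deposited FPKM over all genes, so the 49 were read against it. Their median length was 5344 bp, against 3592 bp over all genes tested, and 18 of them fell in the longest of 5 length classes, with genes of at least 6306 bp. In that class 12 of 18 members rose, against 27.6% of all 2861 genes of the class higher and 6.71% lower. In the next 3 classes, from long to short, 8 of 13, 4 of 9 and 2 of 8 members rose, against 15.3%, 9.29% and 5.73% of all genes higher. The shortest class held only FANCL. Deposited and transcript lengths can differ. In the longest class RAD51B, RAD54B, TOP3A, WRN and BRIP1 have longest GENCODE transcripts under 6306 bp (2596, 3068, 4116, 5215 and 6048 bp). WRN and BRIP1 are among those that rose. Median log2 fold changes of members in the 4 longer classes were 0.31, 0.22, 0.07 and 0.12, against 0.11, 0.05, -0.01 and -0.05 for all genes there. Within the 49, Spearman's rho between length and log2 fold change was 0.34, or 0.30 without BRCA2, and 0.30 over all genes. These are descriptions across genes that share the same 6 libraries.

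BRCA2, at 11386 bp, was set beside the 408 other tested genes within 10% of its length. These had a median log2 fold change of 0.16, with 5th and 95th percentiles of -0.49 and 0.54, and 132 of them rose while 32 fell. Only 2 had a log2 fold change at least as large as that of BRCA2, DLG2 and OTUD7A, which were named after their values were seen. Since the BRCA2 rise was known beforehand, its place among these genes is a description, and no cause of it was tested. TP53BP1 was the only other member in that range of lengths.

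**Figure D4:**
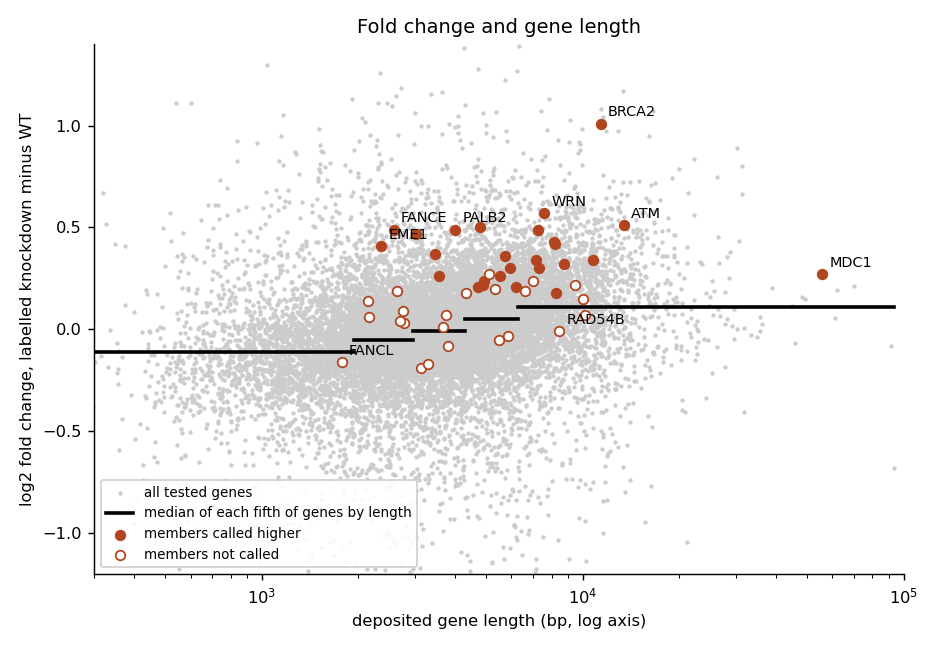
Each point is a gene, with deposited length in bp on a log axis and the log2 fold change, labelled knockdown minus WT; black lines are medians of 5 length classes and the vertical axis leaves out values beyond -1.2 and 1.4, and the shortest genes lie off the length axis. BRCA2 lies at 1.01, above every other member, and most filled points (called members) lie above the line of their class.

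With an adjustment for length and GC content in each library, 25 of the 49 were higher and FANCL alone was lower, against 18.0% of all genes higher and 14.3% lower in that fit. The median of the 49 was 0.17, against 0.02 over all genes. BRCA2 kept a rise of 0.84 ± 0.08 on the log2 scale (SE; edgeR adjusted p = 5.58e-08), or 0.80 with transcript lengths from GENCODE, a choice made after the data were seen. After adjustment EME1 had 0.48, FANCE 0.60 and XRCC2 0.42, against 0.41, 0.49 and 0.50 before it, while ATM had 0.32 and ATR 0.29, against 0.51 and 0.43. RAD50 (0.04), NBN (0.12), BLM (0.15) and FANCM (0.20) lost their calls, and TOP3A (0.19), FANCG (0.28) and MUS81 (0.18) gained one, as did FANCL (-0.15). With an adjustment for length alone, RAD50 (0.10), FANCA (0.16), FANCM (0.27), SLX4 (0.24) and MDC1 (0.13) had no call, and POLQ (0.17) had none with length and GC on GENCODE lengths. With length and GC on GENCODE lengths MDC1 was called higher (0.24). Spearman's rho between length and the adjusted log2 fold change was 0.08 over the 49.

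**Figure D5:**
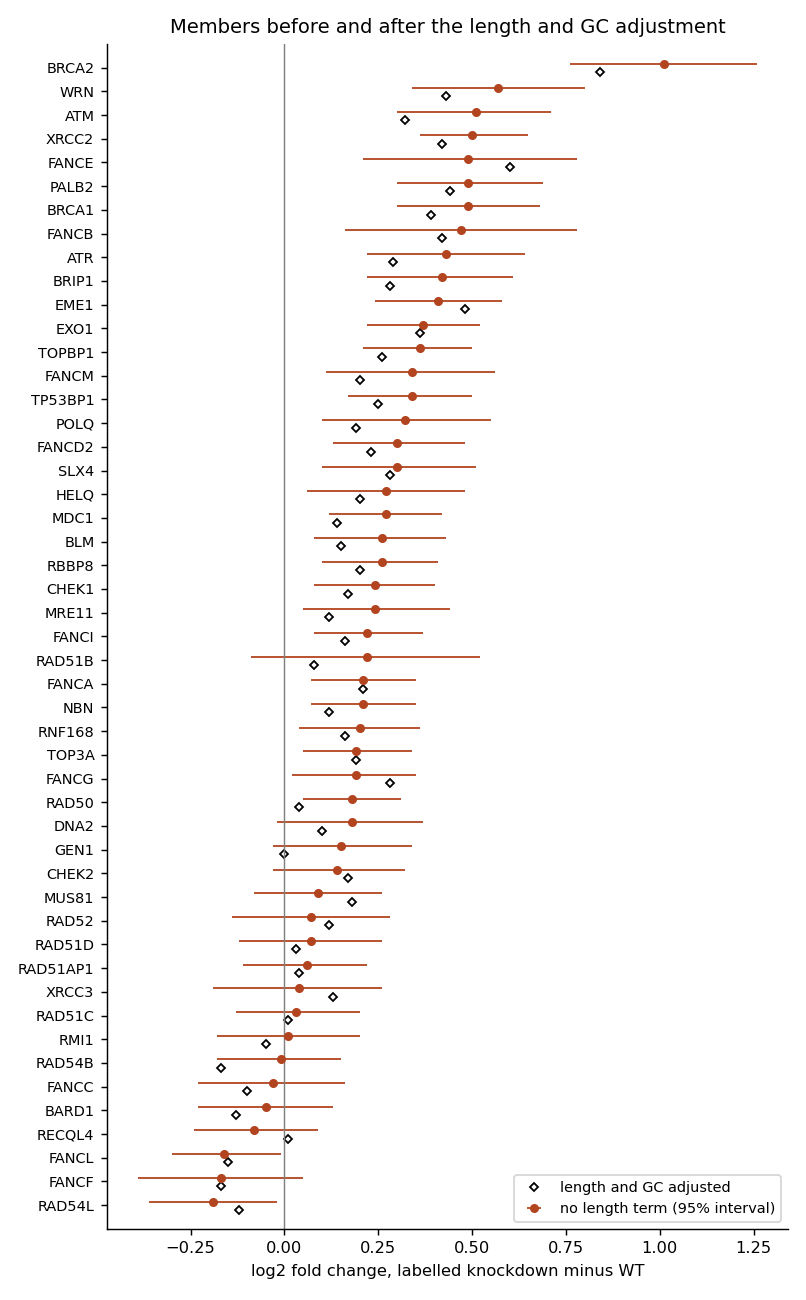
Filled points with bars are log2 fold changes of the 49 genes, labelled knockdown minus WT, with 95% intervals, and open diamonds are the same after the length and GC adjustment. BRCA2 stands at the top in both, at 1.01 and 0.84, and the diamonds of most long genes lie left of their points.

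The libraries within a group also differed along length, and the 49 followed. Labelled knockdown replicate 1 was the lowest of its group for 30 of the 49 genes (40.8% of all genes tested), and labelled knockdown replicate 3 the highest for 30 (38% of all). In WT, replicate 1 was the highest for 27 (36.3% of all) and replicate 3 the lowest for 31 (35.5% of all). Summed over the 49, CPM was 2078.2, 2199.6 and 2283.9 in the libraries labelled knockdown, against 1928.5, 1861.1 and 1778.0 in WT. The groups were separated, and the difference in means was 1.18-fold. For the 18 longest members the ratio of summed CPM was 1.23, and for the other 31 it was 1.15. Across the 49, Spearman's rho between length and a library's deviation from its group mean was -0.30, 0.17 and 0.27 in labelled knockdown replicates 1, 2 and 3 and 0.49, -0.34 and -0.36 in the WT replicates. The part of this trend in the member calls was not tested beyond the adjusted fit.

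Per unit of length the genes spanned a wide range. FANCI, TOPBP1 and FANCL led, at 31.5 ± 2.17, 29.6 ± 1.81 and 24.6 ± 0.558 FPKM in the libraries labelled knockdown and 27.1 ± 1.98, 23.3 ± 1.66 and 27.6 ± 1.35 FPKM in WT (SD, n = 3 each). BRCA2 was near the low end, with 2.46 ± 0.336 FPKM in the libraries labelled knockdown and 1.23 ± 0.211 FPKM in WT, where FANCM had 1.23 ± 0.0409 FPKM and the levels of both genes did not differ beyond their spread. FPKM is void as a level for MDC1, whose deposited length of 55744 bp is 7.36 times its longest GENCODE transcript of 7576 bp, and its adjusted fold change rests on the same length. Deposited lengths of RAD51B and RAD54B were 3.64 and 2.76 times their longest GENCODE transcripts. RAD51B had 0.546 FPKM in the libraries labelled knockdown and 0.47 FPKM in WT, the lowest of the 49 on deposited lengths, but 1.99 and 1.71 FPKM when rescaled to its longest GENCODE transcript. On that scale, chosen after the lengths were seen, BRCA2 ranked 46 of 49 in the libraries labelled knockdown (2.34 FPKM) and 49 in WT (1.17 FPKM), and FANCI, TOPBP1 and FANCL still led.

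Reads could be shared with other genes for 18 of the 49, whose exons overlap another gene of the files by at least 100 bp in GENCODE. The kit marks strand, but the strand setting of the counting is not given in the sources used here. Of these 18 genes 8 rose, and of the 31 without such an overlap 18 rose, with median log2 fold changes of 0.17 and 0.26. Called genes with the longest overlaps, all on the opposite strand, were TP53BP1 with TUBGCP4 (3732 bp), FANCA with ZNF276 (2302 bp), MDC1 with its antisense gene (701 bp) and EME1 with LRRC59 (541 bp).

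Other genes of the pathway, were taken from a list of 49 with 48 tested, of which 6 rose (12.5%), 2 fell (4.17%) and 40 did not pass, with a median log2 fold change of 0.03. Over all genes tested 12.2% rose and 11.0% fell. RIF1, which acts with 53BP1 against resection and has a long transcript of 15041 bp, rose by 0.49 ± 0.08 (SE; edgeR adjusted p = 0.00049). SWI5, a strand exchange cofactor gene of 1099 bp, fell by 0.30 on the log2 scale, a call kept in 2 of 6 fits without a library and lost with the length and GC adjustment (-0.15, adjusted p = 0.177) and with DESeq2 (0.0847). SEM1, the other gene that fell (-0.25 ± 0.07, edgeR adjusted p = 0.0209), passed with DESeq2 (0.0219) and with that adjustment (-0.31, edgeR adjusted p = 0.00144). Its groups overlapped in CPM, and its call was kept in 3 of 6 fits without a library. In the adjusted fit 6 genes of this list rose and 4 fell, against 18.0% of all genes higher and 14.3% lower. The median length of this list was 3689 bp, and the difference between the 2 lists was not tested. In non-homologous end joining 2 of 11 rose, among them PRKDC, the DNA-dependent protein kinase gene (0.45 ± 0.08). In translesion synthesis 4 of 11 rose, led by SHPRH (0.42 ± 0.11), and in nucleotide excision repair 3 of 17, led by UVSSA (0.46 ± 0.09). The SHPRH call was lost in 1 fit without a library (adjusted p = 0.0548). In base excision repair, 1 of 23 rose and 1 fell: XRCC1 (0.33 ± 0.08) and the glycosylase gene MPG (-0.30 ± 0.09), whose adjusted p reached 0.0545 and 0.121 without a library. With the length and GC adjustment 5 rose and 0 fell, MPG standing at -0.14 (adjusted p = 0.122). With that adjustment 1 of 11 end-joining genes rose, and 5 of 17 excision repair genes of the nucleotide list rose and 2 fell. Mismatch repair had 0 of 6 called, and 0 at an unadjusted p under 0.05 in edgeR, DESeq2 and limma-voom.

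Cell-cycle genes, which many of the 49 are transcribed with, moved in different directions. Of 24 fork and replication genes 5 rose and 1 fell, with the polymerase gene POLE at 0.36 ± 0.08 and the ribonucleotide reductase gene RRM2 at -0.23 ± 0.05 (SE). Of 11 S-phase cyclin and E2F genes 3 rose, led by RBL1 (0.36 ± 0.08). Of 12 G2 and mitosis genes 1 rose and 3 fell, with MKI67, of 12714 bp, at 0.39 ± 0.11 and CDC20, of 1648 bp, at -0.22 ± 0.06. MKI67 and CDC20 kept their calls in 3 and 2 of the 6 fits without a library. MKI67 did not pass with DESeq2 (adjusted p = 0.203), and CDC20 did not once length and GC were adjusted for (-0.10, adjusted p = 0.0689). In the adjusted fit 8 fork genes rose and 1 fell, 5 S-phase genes rose and 0 fell, and 2 G2 and mitosis genes rose and 3 fell, while DESeq2 called 1 S-phase gene higher. The part of the cell cycle in the member calls was not tested.

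Total counts were between 11349865 and 16404725 per library, and members had between 58 and 2945 reads in a library. Of 9 markers of glioma or mesenchymal cell lines 8 passed the low-count filter, VIM leading at 2953.6 to 3638.2 CPM, while the astrocyte gene GFAP lay between 0.167 and 0.58 CPM. In that list SOX2 and OLIG2 fell by 0.66 and 0.67 on the log2 scale, while NES, MET and CAV1 rose by 0.27, 0.36 and 0.23. VIM, CD44 and EGFR did not pass (edgeR adjusted p = 0.0557, 0.789 and 0.826). Among 8 leukocyte, epithelial and endothelial markers, KRT8 alone passed the filter, at 32.1 to 44.7 CPM, and the other 7 stayed at or under 1.01 CPM in every library.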

How the data were processed

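Total RNA of LN229 cells was sequenced in 6 libraries built with a stranded kit (labels' protocols). Names in the submitters' processing notes are HISAT2, Trim Galore, MultiQC and FastQC, with hg19 as build. How reads were counted, on which strand and with which annotation is not given in the sources used here. The deposited counts are whole reads per gene, not normalised. The authors' FPKM divides them by gene length and total count, and the lengths this implies were whole numbers (within 0.001 bp) for 21754 genes. The authors' TPM, which sums to 1000000 per library, was not used. Counts were fitted in R 4.3.3 with edgeR 4.0.16 (filterByExpr, TMM, glmQLFit and glmQLFTest, group as the only term, Benjamini-Hochberg over 14315 genes). CPM uses TMM-scaled library sizes. DESeq2 1.42.0 and limma 3.58.1 (voom) were alternatives. Length and GC were adjusted with offsets from natural splines (4 degrees of freedom each) of log2 CPM on log2 length and GC content per library. GC was the mean over GENCODE v29 transcripts, matched for all 49 members and 95.3% of tested genes, with the median used elsewhere. On simulated data for this comparison (14194 genes tested), 76 of 100 genes set to a 1.5-fold change were recovered, and 94 of 100 set to 2-fold.

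No 2 libraries of a group were copies (chi-square per degree of freedom 1.95 to 8.54). Members and lists were chosen with earlier results of these data known. Values in every library are given for called members, BRCA1, PALB2, BRCA2 and members of the longest length class; BARD1, RAD54L and FANCL were added after their values were seen. Other lists give their most changed called gene in each direction, and the 2 nearest tested genes on each side of BRCA2 are named. SEM1 was added after its values were seen.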

Additional observations from a re-analysis of the deposited data

How the results depend on the processing

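The BRCA2 log2 fold change kept its call in all 14 alternatives, from 0.80 with length and GC adjustment on GENCODE lengths to 1.16 without WT replicate 1 (0.89 to 1.16 over the 6 fits without a library). The number of members called ranged from 12 to 33 in those fits, all of them higher, and the number of all genes called from 1826 to 4941. It was 20 members with DESeq2, 27 with limma-voom and with RLE size factors, 26 with no low-count filter, 22 with the length offset and 26 with each length and GC offset, 25 higher and 1 lower (FANCL). All genes called numbered 2572 with DESeq2 and 4623 with the length and GC offset. With the replicate number as a block, 14 members and 1891 genes were called. Same-numbered libraries did not deviate together (Pearson r = -0.191, 0.00821 and -0.217 for numbers 1, 2 and 3), and no library correlated best with its own number. No label ties the numbers to a shared day. With 3 libraries in each group these correlations cannot decide whether same-numbered libraries shared a day or culture. Changes of sign were confined to genes with no call: BARD1 (0.03, range over fits without a library -0.11 to 0.03) and XRCC3 (-0.03, range -0.03 to 0.11) without labelled knockdown replicate 1, XRCC3 (-0.02) and FANCC (0.02, range -0.09 to 0.02) without WT replicate 2, RAD54B (0.01) without labelled knockdown replicate 3 or WT replicate 3, and RMI1 (-0.08 and -0.02, range -0.08 to 0.06) without labelled knockdown replicate 3 or WT replicate 1. RAD51D (-0.03) changed sign with the length offset, RECQL4 (0.01 in both) and RMI1 (-0.05 and -0.04) with the length and GC offsets, and GEN1 (-0.02) with the offset on GENCODE lengths. The cause of these changes was not tested; fits without a library have fewer samples. Depth limits RAD51B, FANCB and FANCE, whose libraries held 58 to 138 reads each.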
